A study of Mus musculus with 16 samples.

Results

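RNA was measured in memory CD8 T cells from leukemic spleens and set against the 3 other CD8 T-cell subsets of the same experiment, to find the genes whose level peaked or dipped in memory cells alone. Memory cells made up 4 of the 16 arrays, chosen by their sample titles, and the naive, PD-1int and PD-1hi subsets contributed 4 arrays each. All donors were female C57BL/6 mice (the strain label spells it C56BL/6) that had received murine CLL cells of Eµ-TCL1 origin. CLL stands for chronic lymphocytic leukemia, a B-cell malignancy, and the Eµ-TCL1 transgene drives TCL1 in B cells. Splenic cells were sorted 6 weeks after transplantation as Lin- TCRb+ CD8+. Memory cells were CD127hi CD44hi, naive cells were CD127hi CD44low, and the PD-1int and PD-1hi effector cells were both CD127low CD44int-hi and differed in surface PD-1. Every subset came from leukemic mice, so no array shows a memory cell from a healthy spleen. The sample titles repeat the same 4 array numbers in every subset, without saying what a number marks. The labels do not say whether arrays of a subset came from separate mice, and the p-values below therefore measure only the spread between these samples.

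CD8 T cells recognise peptides on MHC class I molecules and kill cells that present foreign or altered ones. After an antigen is cleared, a part of the responding cells persists as memory, which keeps the receptor for interleukin 7 and CD44, circulates through lymphoid organs, and responds fast to interleukins 12, 15 and 18. Where antigen persists, as in cancer, responding cells instead keep inhibitory receptors such as PD-1 and drift toward exhaustion. A subset of mouse CD8 memory cells also carries receptors first described on natural killer cells, among them the Ly49 family encoded by the Klra genes.

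Each of 22180 genes was represented by a single probe set, with values on a log2 scale as deposited. The 4 memory arrays correlated pairwise, across genes, at r = 0.992 to 0.994. The 3 genes behind the sort gates followed their labels. Il7r, which encodes CD127, measured 12.53, 12.60, 12.67 and 12.48 on the memory arrays, 12.89 to 13.04 on the naive arrays, 7.14 to 7.91 on the PD-1int arrays and 4.48 to 5.67 on the PD-1hi arrays. Cd44 averaged 8.99 ± 0.13 in memory, against 6.07 ± 0.12 in naive, 8.69 ± 0.20 in PD-1int and 7.93 ± 0.12 in PD-1hi cells (SD, n = 4 arrays each). Pdcd1, which encodes PD-1, stayed between 7.02 and 7.23 on the memory arrays and between 6.52 and 7.11 on the naive arrays, against 9.75 to 10.42 on PD-1int and 11.18 to 11.52 on PD-1hi arrays. Since the files hold no detection calls, a value near the low end of the scale can mean an absent transcript, and differences of dim genes are compressed. In sorted populations, fewer expressing cells and less RNA per cell cannot be told apart.

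Memory differed from the equally weighted mean of the 3 others in 3327 genes, 15% of those tested, at a limma p adjusted by Benjamini-Hochberg over all genes and under 0.05. Among them 1760 were higher in memory (7.94%) and 1567 lower (7.06%), and 342 (1.54%) differed at least 2-fold, 199 higher and 143 lower. This comparison also takes in genes that follow only some of the other subsets. A gene was therefore called a peak gene where memory lay above each of the 3 others, and a dip gene where it lay below each of them, with the largest of the 3 limma p-values adjusted over all genes. There were 140 peak genes (0.631%) and 68 dip genes (0.307%), and all 208 were among the 3327, of which they make up 6.25%. The number of dips depended on single arrays: it was 40 without memory replicate 3 and 45 without memory replicate 1. Before adjustment 1003 genes had a largest p under 0.05. Among the genes higher in memory that were not peak genes, memory had the highest mean of the 4 subsets in 1196, the next highest in 404 and the third highest in 20. Among the genes lower in memory that were not dip genes, it had the lowest mean in 880, the third highest in 600 and the next highest in 19.

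The genes with the largest mean differences that were neither peaks nor dips show how much the 3 other subsets differ. Il7r was 4.11 ± 0.16 log2 units above the mean of the others, yet each memory array lay below each naive array. Samd3 (3.21 ± 0.19), Trim30c (2.99 ± 0.18) and Tnfsf8, the ligand of CD30 (2.70 ± 0.11), had every memory array above all 12 others, but the step to the nearest subset did not pass over all genes, with adjusted p of 0.0987, 0.144 and 0.0749 in limma. The largest falls were Havcr2, which encodes the inhibitory receptor TIM-3 (-3.07 ± 0.15), Ccl3, a chemokine of activated effector cells (-2.84 ± 0.22), Maf, a transcription factor linked to exhaustion (-2.59 ± 0.16), and Med7, a subunit of the Mediator complex (-2.48 ± 0.13). In all 4 of these the memory mean was nearer to naive than to either PD-1 subset. Havcr2 measured 5.19 to 5.81 on memory arrays and 5.21 to 5.72 on naive arrays, against 8.75 to 9.78 on PD-1int and 10.54 to 10.99 on PD-1hi arrays.

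The size of a peak or dip is given below as its margin, the log2 difference between memory and the nearest other subset mean, with the standard error of the limma fit. For peak genes the margin had a median of 0.74 and ran from 0.28 to 3.01. It reached 1 or more, a 2-fold difference, in 39 genes and stayed under 0.5 in 29. For dip genes its size had a median of 0.66 and ran from 0.32 to 2.28, with 14 genes at 1 or more and 21 under 0.5. All 4 memory arrays lay above all 12 others in 139 of the 140 peak genes, and below them in 67 of the 68 dip genes. Over all genes tested such a separation held for 1.94% upward and 1.01% downward. The exceptions were Mir701 among the peaks and Ddr1 among the dips. The genes closest to the threshold were Qrfp, Nolc1 and Dennd3 inside it, with adjusted p of 0.0474, 0.0467 and 0.0467, and Rasa4, Ruvbl2 and Hddc2 outside it, with 0.0502 each.

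The subset nearest to memory in a peak gene was naive 68 times, PD-1int 56 times and PD-1hi 16 times. In dip genes naive was nearest 38 times, PD-1int 16 times and PD-1hi 14 times. The 3 other subsets differed among themselves in 73 of the 140 peak genes (52.1%) and 27 of the 68 dip genes (39.7%), by a limma F test that called 26.8% of all genes. In 51 peak genes the other means stepped down from naive over PD-1int to PD-1hi, and in 11 they stepped up. Dip genes had the opposite balance, with 22 stepping up and 7 stepping down. These counts take the order of the means alone, without a test, and were not made over all genes. The 3 other means lay closer together than the margin in 106 peak genes and 54 dip genes.

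**Figure D1:**
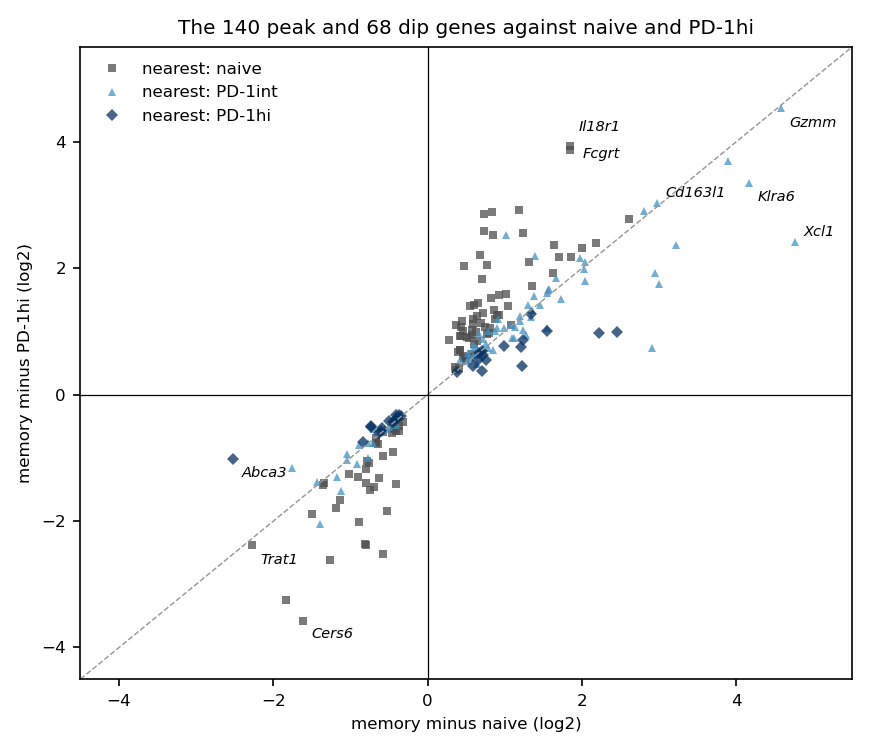
Memory minus naive (x axis) and memory minus PD-1hi (y axis), both log2, for each peak gene (upper right) and dip gene (lower left), with the marker showing the nearest other subset and the dashed line marking equal differences. Gzmm and Trat1 lie near the line, while Il18r1 and Fcgrt lie above it among the peaks and Cers6 below it among the dips, where PD-1hi was further from memory than naive was. Naive was further away for Xcl1, below the line, and for Abca3, above it.

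Receptors of the natural killer gene complex gave the largest peak. Klra6, which encodes an inhibitory Ly49 receptor for MHC class I, measured 8.96, 8.78, 9.25 and 9.19 on the memory arrays, 5.16, 4.84, 4.35 and 5.17 on the naive arrays, 5.34, 6.16, 6.51 and 6.12 on the PD-1int arrays, and 5.57, 6.05, 5.24 and 5.90 on the PD-1hi arrays. No other array came within 2 log2 units of the memory arrays, and naive arrays were lowest. Its margin over PD-1int was 3.01 ± 0.23, an 8.06-fold difference (limma adjusted p = 3.59e-07). Klra9 (margin 2.29 ± 0.25) and Klra5 (1.44 ± 0.31) were peak genes too, as was the pseudogene Klra14-ps (1.14 ± 0.24). Klra5 rested on a narrow gap: PD-1int replicate 3 measured 7.31, just under the lowest memory array at 7.33, and its call was lost in 6 of 16 fits that left out an array. Klra14-ps was uneven too, with 5.78 to 7.01 on memory arrays and up to 5.66 on PD-1int arrays (limma adjusted p = 0.0232). Whether the Klra14-ps call held without single arrays was not examined. Of the 7 Klra genes measured, 4 were peaks, beside 0.631% of all genes, and Klra2, Klra11 and Klra17 showed no difference that passed. The Ly49 genes are close copies of each other, so their probe sets may share signal and the split between members is uncertain. In RefSeq gene order Klra6 and Klra5 have 2 annotated genes between them on chromosome 6, and Klri2, another lectin-like receptor that peaked (0.81 ± 0.09), has 4 between it and Klra5.

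Most other lectin-like receptors were not peaks. Of 14 measured genes of the NKG2 family and its partners, 8 were higher and 1 lower against the mean of the others. Their median difference was 0.68, against -0.01 over all genes. Here and for each list below, the shares over all genes were 7.94% higher and 7.06% lower. Only Klri2 and Klrb1c were peaks. Klrc2 averaged 8.67 in memory, against 4.73 in naive, 8.63 in PD-1int and 7.44 in PD-1hi cells, and Klrk1, which encodes NKG2D, averaged 9.29, against 5.47, 10.52 and 9.73. Klrg1, a receptor of short-lived effector cells, was lower (-1.86 ± 0.18): it averaged 6.94 in memory, against 6.02 in naive, 10.63 in PD-1int and 9.73 in PD-1hi cells.

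Gzmm, which encodes the granule protease granzyme M, gave the largest peak among cytotoxic genes. It measured 12.18, 12.14, 12.09 and 12.12 on the memory arrays, 7.58, 7.63, 7.35 and 7.65 on the naive arrays, 9.65, 9.42, 9.10 and 9.10 on the PD-1int arrays, and 7.73, 7.66, 7.75 and 7.28 on the PD-1hi arrays. The memory arrays were nearly level, the PD-1int arrays lay between, and the PD-1hi and naive arrays overlapped. The margin over PD-1int was 2.81 ± 0.12, a 7.04-fold difference (limma adjusted p = 2.78e-10). Gzmb and Gzmk ran the other way: Gzmb averaged 9.33 in memory, against 6.07 in naive, 12.98 in PD-1int and 13.08 in PD-1hi cells, and Gzmk averaged 9.69, against 7.40, 12.86 and 12.92. Of 21 cytotoxic genes 7 were higher and 9 lower against the mean of the others, with Gzmm the only peak and no dip. Ifng, which encodes interferon gamma, was lower by the mean comparison (-2.33 ± 0.16) and Tnf higher (0.67 ± 0.11).

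Over the 24 cytokine receptor genes 10 were higher and 4 lower against the mean of the others, with Il18r1 the only peak. Il18r1, the ligand-binding chain of the interleukin 18 receptor, measured 10.90, 10.83, 10.73 and 10.98 on the memory arrays, 8.90 to 9.16 on naive, 8.38 to 9.42 on PD-1int and 6.75 to 7.14 on PD-1hi arrays. Its margin over naive was 1.85 ± 0.16 (limma adjusted p = 1.38e-06). The partner chain Il18rap was higher by the mean comparison (2.42 ± 0.22) but no peak, since its step over PD-1int was 0.46 ± 0.27. Il18, the cytokine itself, and Il18bp, its soluble inhibitor, had mean differences of -0.34 ± 0.11 and -0.34 ± 0.13, and neither passed. Il18 was lower than in PD-1hi cells by that single comparison (-0.67 ± 0.14, limma adjusted p = 0.00131). Stat4, which relays interleukin 12 signals, was a peak of small and even size: the memory arrays lay between 12.02 and 12.07, and the others between 10.98 and 11.70 (margin 0.46 ± 0.08, limma adjusted p = 0.00313). Il12rb2 averaged 7.65 in memory, against 6.83 in naive, 5.76 in PD-1int and 4.97 in PD-1hi cells (mean difference 1.79 ± 0.22, no peak).

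Xcl1, a chemokine sensed by dendritic cells that carry XCR1, was the only peak among 10 chemokines. It measured 10.53, 10.69, 10.29 and 10.65 on the memory arrays, 5.46 to 6.33 on naive, 8.56 to 9.51 on PD-1int and 7.67 to 8.80 on PD-1hi arrays, with a margin over PD-1int of 1.35 ± 0.24 (limma adjusted p = 0.00676). Ccl3 and Ccl4 were lower in memory than in both PD-1 subsets. Ccl5 was far above naive, at 13.57 in memory, against 9.55 in naive, 13.94 in PD-1int and 14.01 in PD-1hi cells. Gpr15, a homing receptor for the large intestine, measured 7.90, 8.58, 7.56 and 8.44 on the memory arrays, and between 5.14 and 5.86 on the 12 others. The other 3 subsets overlapped each other, and the margin of 2.62 ± 0.19 corresponds to 6.13-fold (limma adjusted p = 1.41e-07). Its direct neighbour on chromosome 16 in RefSeq order, Cldnd1, was also a peak (1.08 ± 0.11).

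**Figure D2:**
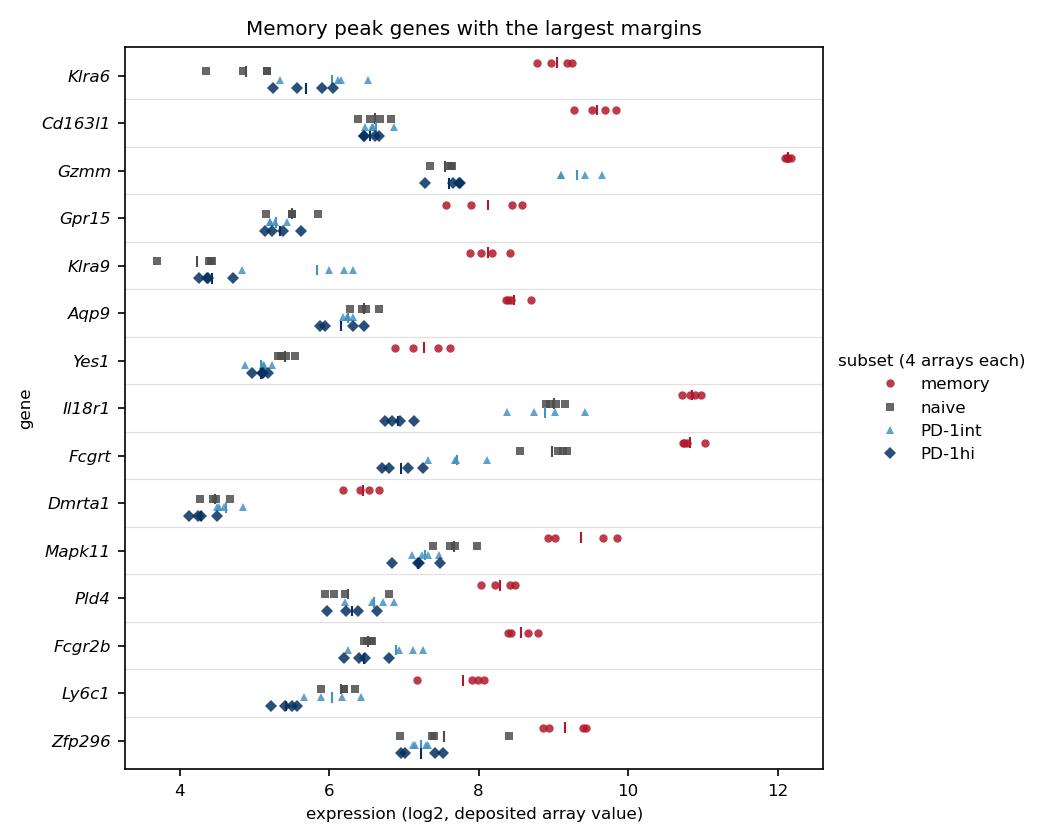
Log2 values (x axis) of the 15 named peak genes with the largest margins, one row per gene in order of margin, with a point for each of the 4 arrays of a subset and a short vertical line at the subset mean. Predicted loci, small RNAs and receptor segments were left out, as were genes whose memory arrays overlapped the others. In every row the 4 memory arrays lie to the right of the 12 others, and in Cd163l1, Gpr15, Dmrta1 and Yes1 the other 3 subsets lie close together.

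Several further peaks are genes better known from other blood cells. Cd163l1, a scavenger receptor described on gamma-delta T cells, measured 9.84, 9.69, 9.52 and 9.28 on the memory arrays and between 6.38 and 6.86 on the 12 others. The other 3 subset means spanned 6.55 to 6.63, so the margin of 2.96 ± 0.12 (7.76-fold, limma adjusted p = 1.60e-10) is nearly the mean difference of 2.99 ± 0.10. 5830411N06Rik, with 1 annotated gene between them on chromosome 7, was a peak as well (1.16 ± 0.07). Fcgr2b, the inhibitory receptor for immunoglobulin G, averaged 8.57 ± 0.19 in memory, against 6.52 ± 0.05 in naive, 6.89 ± 0.45 in PD-1int and 6.47 ± 0.25 in PD-1hi cells (SD, n = 4 each; margin 1.68 ± 0.17). Fcgrt, the heavy chain of the neonatal Fc receptor, had a margin of 1.84 ± 0.16 over naive. The other 3 Fcgr genes measured, Fcgr1, Fcgr3 and Fcgr4, did not pass. Cd22, an inhibitory lectin of B cells, measured 9.36 to 9.60 on memory arrays, 6.03 to 6.53 on naive, 7.88 to 8.29 on PD-1int and 6.96 to 7.45 on PD-1hi arrays (margin 1.47 ± 0.12). Pld4, a lysosomal nuclease of B cells and dendritic cells, had a margin of 1.69 ± 0.18.

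Markers of other cells were read beside these genes, and their part in the peaks was not tested. Of 8 markers of natural killer cells and of gamma-delta or innate-like T cells 3 were higher in memory: Klrb1c, which encodes NK1.1 (peak, 0.99 ± 0.19), and Tyrobp and Fcer1g, adaptors of activating receptors, by 0.65 ± 0.12 and 0.46 ± 0.14 against the mean of the others. Their summed log2 level ran from 9.49 to 9.67 on memory arrays, 9.12 to 9.27 on naive, 9.26 to 9.38 on PD-1int and 9.15 to 9.40 on PD-1hi arrays. For 3 defining genes of those lineages no difference passed: Ncr1 averaged 5.84 in memory, against 5.84 in naive, 5.75 in PD-1int and 5.87 in PD-1hi cells, Sox13 averaged 7.20, against 7.22, 7.23 and 7.17, and Zbtb16 averaged 6.53, against 6.66, 6.57 and 6.73. Klrb1c was uneven within memory, with 7.08 and 7.17 on replicates 1 and 4 and 6.36 and 6.04 on replicates 2 and 3. Fcer1g was uneven in the same way, with 7.39 and 7.70 on replicates 1 and 4 and 6.88 and 6.59 on replicates 2 and 3. It ran from 6.37 to 7.11 on the arrays of the other subsets. Of 17 markers of B cells and CLL cells 2 were higher against the mean of the others, Ighm and Cd79b, and in both naive lay above memory: Ighm averaged 12.31 in memory, against 12.63 in naive, 9.65 in PD-1int and 8.95 in PD-1hi cells. The summed B-cell level ran from 12.61 to 12.84 on memory arrays, 12.93 to 13.07 on naive, 10.92 to 11.40 on PD-1int and 10.68 to 11.15 on PD-1hi arrays. Cd79a, Ms4a1, Pax5 and Ebf1 showed no difference that passed, and averaged 4.57 to 6.12 in memory. Of 9 markers of CD4 and regulatory T cells 3 were lower and none higher: Ctla4 (-1.85 ± 0.10), Gpr83 (-0.75 ± 0.12) and Ikzf4 (-0.61 ± 0.12), none of them a dip. Their summed log2 level ran from 9.58 to 9.60 on memory arrays, 9.98 to 10.36 on naive, 9.96 to 10.08 on PD-1int and 10.40 to 10.59 on PD-1hi arrays, so memory lay below all 12 others. The defining genes showed no difference that passed: Cd4 averaged 5.97 in memory, against 5.95 in naive, 6.02 in PD-1int and 6.05 in PD-1hi cells, and Foxp3 had a mean difference of 0.04 ± 0.08 from the others. Myeloid markers gave 2 higher and 2 lower of 17, with no peak or dip, and the 7 erythroid and platelet markers gave none. Over all genes 7.94% were higher and 7.06% lower by the same comparison, the shares to set beside the counts of these lists.

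Kinases, membrane proteins and other named genes completed the leading peaks. Aqp9, a channel for water and glycerol, measured 8.39, 8.37, 8.70 and 8.43 on memory arrays and at most 6.67 on any other (margin 2.00 ± 0.12). Yes1, a kinase of the Src family, had a margin of 1.86 ± 0.13. Mapk11, which encodes p38 beta, averaged 9.37 ± 0.46 in memory, against 7.66 ± 0.24 in naive, 7.28 ± 0.15 in PD-1int and 7.18 ± 0.27 in PD-1hi cells (SD, n = 4 each; margin 1.70 ± 0.19). Its neighbour Mapk12, the gene of p38 gamma, was a peak too (0.68 ± 0.11), as was Hdac10 nearby on chromosome 15, while Mapk14, the gene of p38 alpha, had a mean difference of 0.03 ± 0.08. The transcription factor Dmrta1 (1.84 ± 0.12), the zinc finger gene Zfp296 (1.62 ± 0.23) and Ly6c1, a surface protein of memory cells (1.63 ± 0.18), followed. Ly6c2 was highest in memory by its mean, at 13.35, against 12.21 in naive, 12.06 in PD-1int and 9.73 in PD-1hi cells, without passing as a peak.

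Integrins divided between peaks and a dip. Itgb3, the beta 3 chain that pairs with Itgav, measured 8.91, 8.98, 8.61 and 8.72 on memory arrays, 7.69 to 7.93 on naive, 7.01 to 7.36 on PD-1int and 7.25 to 7.66 on PD-1hi arrays (margin 1.04 ± 0.11, limma adjusted p = 2.22e-05). Itga1, the alpha chain of a collagen receptor, was a smaller peak (0.85 ± 0.15). Itga4, the alpha 4 chain that binds VCAM-1, dipped: it measured 11.25, 11.12, 10.78 and 11.03 on memory arrays, 12.10 to 12.33 on naive, 12.91 to 13.01 on PD-1int and 12.80 to 12.91 on PD-1hi arrays, a margin of -1.18 ± 0.09 (limma adjusted p = 2.47e-07). Its usual partner Itgb1 was higher by the mean comparison (1.53 ± 0.14) without being a peak, with 9.89 to 10.11 on memory arrays, against 7.26 to 8.19 on naive, 9.26 to 9.69 on PD-1int and 7.81 to 8.42 on PD-1hi arrays. Itgav averaged 8.55 in memory, against 8.96, 9.84 and 10.20 in naive, PD-1int and PD-1hi cells (mean difference -1.12 ± 0.10). Of 15 integrin genes on the list 4 were higher and 5 lower. Over all 30 measured genes with symbols that begin with Itga or Itgb, 4 were higher and 8 lower, with 2 peaks and 1 dip. Among egress and lipid receptors Gpr183, a receptor for oxysterols that guides cells within the spleen, was the only peak of 13 (0.85 ± 0.16), and 17 chemokine receptors gave 5 higher, 3 lower and no peak.

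The peak genes comprised 124 protein-coding genes, 7 long noncoding RNAs, 4 microRNA genes, 4 pseudogenes and 1 Y RNA. The array probes microRNA genes by their precursor, so the values do not measure the mature strands. Mir1967 measured 6.55, 6.70, 7.99 and 7.42 on memory arrays and averaged 4.35 ± 0.40 in naive, 4.56 ± 1.02 in PD-1int and 4.26 ± 0.24 in PD-1hi cells (margin 2.60 ± 0.39, limma adjusted p = 0.00107). Mir701 averaged 6.62 ± 0.53 in memory, against 4.43 ± 1.22, 3.46 ± 0.13 and 4.22 ± 1.02 in naive, PD-1int and PD-1hi cells, and was the peak gene whose arrays overlapped between subsets. Mir708 had a margin of 0.45 ± 0.09 and Mir1949 of 1.23 ± 0.25. The host genes differed in how they followed: Urb2, around Mir1967, had a mean difference of 0.44 ± 0.11, Ttc28, around Mir701, of 1.34 ± 0.12, and Tenm4, around Mir708, of -0.06 ± 0.08, and none of these was a peak. Snhg4, around Mir1949, was a peak (0.55, limma adjusted p = 0.031). The mature sequences of 3 of these microRNAs, from RefSeq on GRCm38.p6, are given to show that the strands share no seed, and capitals mark the seed, bases 2 to 8. On the plus strand they lie at chr8:124022688-124022710 for miR-1967, chr5:111004170-111004190 and chr5:111004208-111004227 for the 5p and 3p strands of miR-701, and chr7:96249450-96249472 and chr7:96249496-96249517 for those of miR-708.
mmu-miR-1967: uGAGGAUCcuggggagaagaugc
mmu-miR-701-5p: uUAGCCGCugaaauagaugga
mmu-miR-701-3p: uAUCUAUUaaagaggcuagc
mmu-miR-708-5p: aAGGAGCUuacaaucuagcuggg
mmu-miR-708-3p: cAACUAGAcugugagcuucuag

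Genes of the nucleolus, where ribosomal RNA is made and assembled into ribosome subunits, had their highest means in memory. This list of 29 measured genes was drawn up after values had been seen, so its counts describe it and are not independent support. Memory had the highest mean of the 4 subsets in all 29, 28 were higher by the mean comparison and 6 were peaks: Nat10, Pa2g4, Nhp2, Ddx21, Taf1d and Nolc1. Over all 22180 genes memory had the highest mean in 4660, 7.94% were higher and 0.631% were peaks. The median difference of the list was 0.57, and by subset it was 0.33 over naive, 0.63 over PD-1int and 0.79 over PD-1hi. Nat10, an acetyltransferase of ribosomal RNA, measured 10.21, 10.14, 10.08 and 10.25 on memory arrays, 9.18 to 9.81 on naive, 9.08 to 9.53 on PD-1int and 8.85 to 9.25 on PD-1hi arrays (margin 0.69 ± 0.13, limma adjusted p = 0.00823). Nhp2, a core protein of the particles that modify ribosomal RNA, spanned 9.77 to 9.85 in memory and 9.09 to 9.53 in the others (0.53 ± 0.08). Dkc1, the enzyme of the same particles, averaged 10.65 in memory, against 9.96 in naive, 9.18 in PD-1int and 8.95 in PD-1hi cells, and its step over naive did not pass (0.68 ± 0.16, limma adjusted p = 0.0539). Polr1b, a subunit of RNA polymerase I, averaged 9.54 in memory, against 9.04, 8.55 and 7.92 in naive, PD-1int and PD-1hi cells. Polr1e did not pass (0.13 ± 0.07). Differences in the list are small, below 2-fold against the mean of the others in all genes except Dkc1 (1.28) and Polr1b (1.03). Ddx21 and Taf1d were no longer peaks when their probe sets were averaged, with limma adjusted p of 0.243 and 1.

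**Figure D3:**
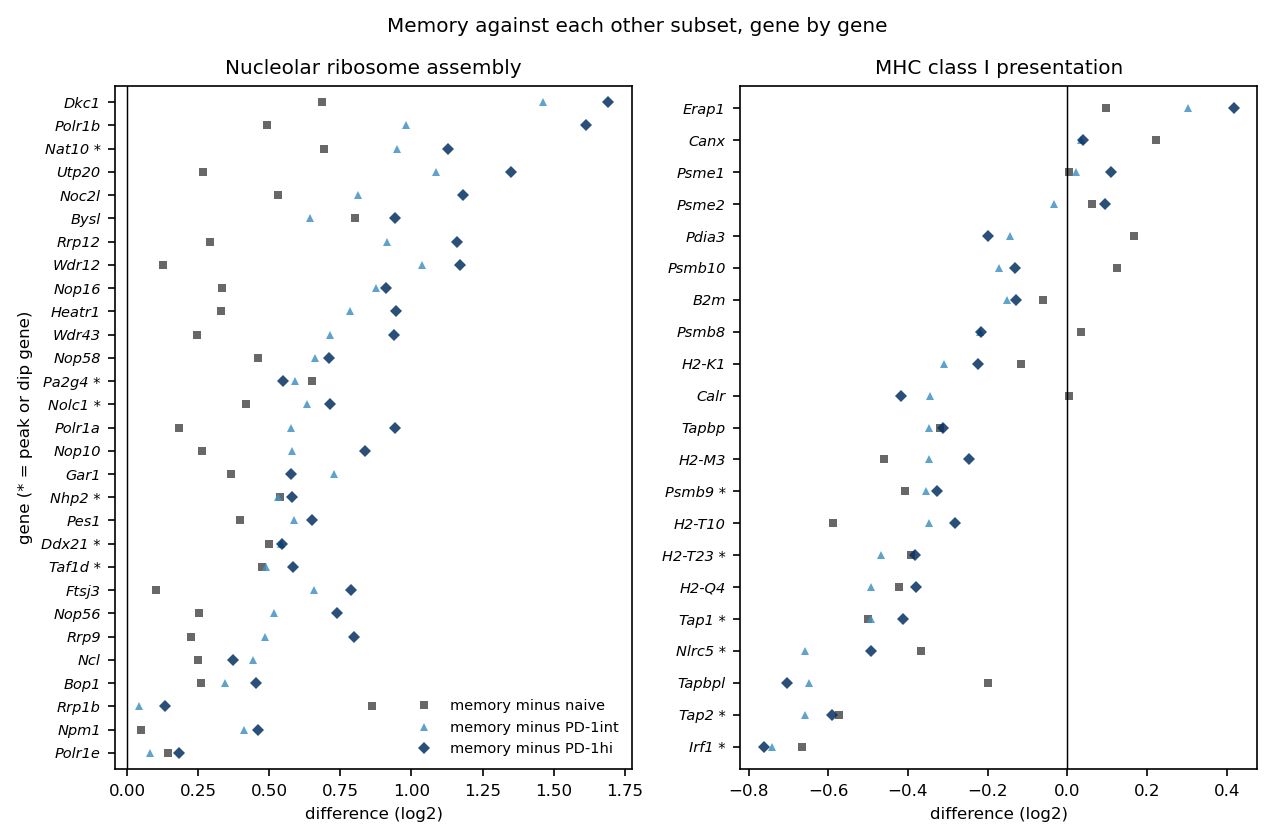
Memory minus each of the 3 other subsets (x axis, log2) for the 29 nucleolar genes (left) and the 21 MHC class I presentation genes (right), a row per gene with an asterisk on peak and dip genes. All nucleolar points lie above 0, and the MHC class I genes from Irf1 to Tapbp lie below 0 against all 3 subsets.

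The largest dip was Trat1, a transmembrane adaptor that associates with the T-cell receptor. It measured 7.26, 6.93, 6.68 and 7.39 on the memory arrays, 9.21, 9.22, 9.39 and 9.56 on the naive arrays, 9.60, 9.69, 9.52 and 9.56 on the PD-1int arrays, and 9.77, 9.33, 9.22 and 9.45 on the PD-1hi arrays. The naive and both PD-1 subsets overlapped each other, and every one of their arrays lay above the highest memory array. The margin below naive was -2.28 ± 0.14, a 4.86-fold difference (limma adjusted p = 2.20e-08). Sit1, another transmembrane adaptor of T cells, had a mean difference of 0.67 ± 0.11 in the other direction. The 250 bases upstream of the annotated start of Trat1 are shown because this gene gave the clearest dip, from RefSeq on GRCm38.p6 at chr16:48772063-48772312, minus strand. Capitals mark a T-box core (ACACCT), a TCF/LEF core (CTTTGAT) and a RUNX core (ACCACA).
Trat1 upstream: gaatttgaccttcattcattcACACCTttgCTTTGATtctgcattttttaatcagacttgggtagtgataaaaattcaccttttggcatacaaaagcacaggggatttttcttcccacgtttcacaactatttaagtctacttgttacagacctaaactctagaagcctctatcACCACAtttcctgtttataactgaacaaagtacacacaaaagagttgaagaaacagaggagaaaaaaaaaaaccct

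Cers6, a ceramide synthase, also dipped. It measured 6.75, 7.06, 6.23 and 6.91 on memory arrays, 7.81 to 8.80 on naive, 9.58 to 9.99 on PD-1int and 10.21 to 10.40 on PD-1hi arrays (margin -1.61 ± 0.19). The 4 subsets did not overlap, with memory at the bottom of a ladder that ended at PD-1hi. Inpp4a, a phosphoinositide phosphatase (-1.34 ± 0.12), and Ccng2, a cyclin of resting cells (-0.90 ± 0.11), were also nearest to naive. Abca3, a lipid transporter, ran differently: it measured 6.15 to 6.71 on memory arrays, 8.80 to 9.09 on naive, 7.71 to 8.09 on PD-1int and 7.23 to 7.65 on PD-1hi arrays (-1.01 ± 0.12, nearest to PD-1hi). Serinc5, a membrane protein that blocks retroviruses, had a margin of -1.36 ± 0.25, with PD-1int replicate 1 at 7.35, close to the highest memory array at 7.28. Izumo1r, which encodes folate receptor 4, averaged 8.05 ± 0.13 in memory, against 9.45 ± 0.23 in naive, 9.16 ± 0.15 in PD-1int and 10.10 ± 0.15 in PD-1hi cells (SD, n = 4 each). This receptor is known from regulatory T cells. The list that holds their markers had its lowest summed level on memory arrays, as given above. Its median difference over 9 genes was only -0.03, beside -0.01 over all genes, with 3 lower and 6 passing in neither direction. Foxp3 and Cd4 were among those that did not pass. What part such cells had in the Izumo1r dip was not tested.

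Further dips among those with the largest margins were Aim2, a sensor of cytosolic DNA (-1.12 ± 0.11), the arrestin-like Arrdc3 (-1.02 ± 0.21), Usp6nl, a regulator of Rab GTPases (-1.01 ± 0.11), the chromatin factor Arid5b (-0.93 ± 0.11), the G protein subunit Gnb4 (-0.89 ± 0.18) and the nuclear receptor corepressor Nrip1 (-0.87 ± 0.10). The calls of Arrdc3 and Gnb4 were lost in 6 and 4 of the 16 fits that left out an array. Cd84, a SLAM family receptor, dipped by a small step: 10.46 to 10.68 on memory arrays, against 10.87 to 11.25 on the others (-0.44 ± 0.09). Ets1, a transcription factor of resting lymphocytes, averaged 10.39 ± 0.07 in memory, against 10.82 ± 0.09, 10.85 ± 0.07 and 10.80 ± 0.08 in naive, PD-1int and PD-1hi cells (-0.41 ± 0.07).

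**Figure D4:**
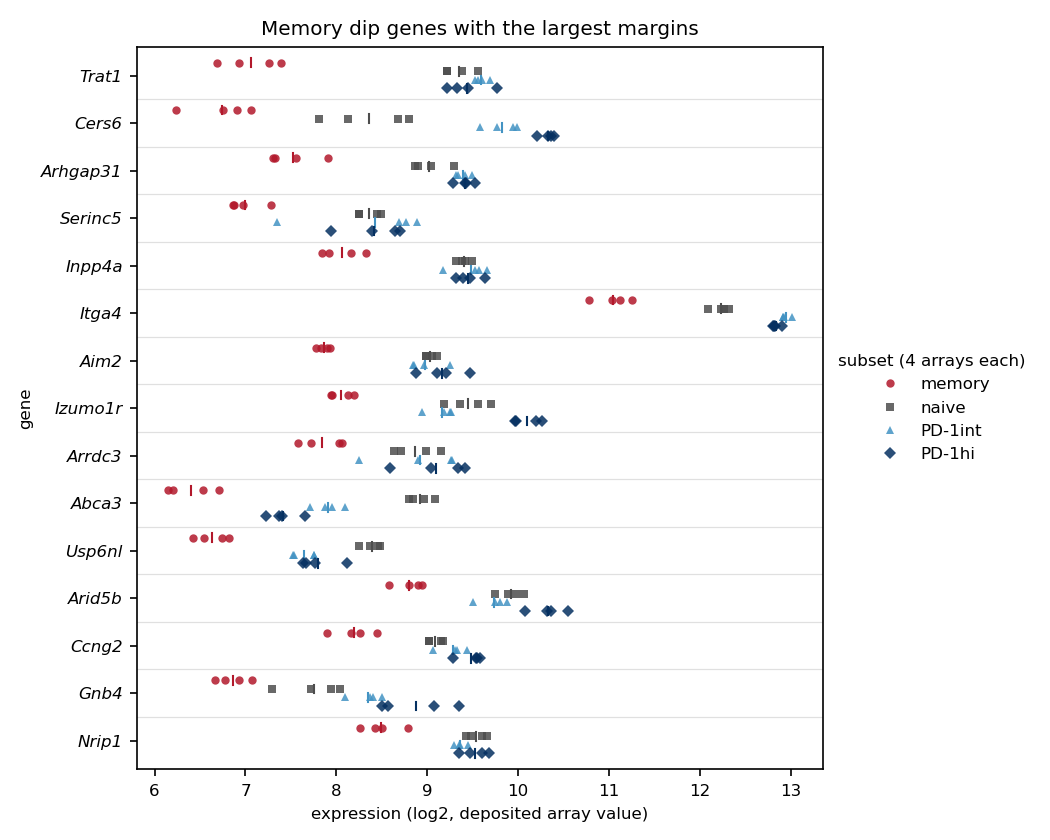
Log2 values (x axis) of the 15 named dip genes with the largest margins, one row per gene in order of margin, with a point for each array and a short vertical line at each subset mean. The same kinds of genes were left out as for the peak genes. In every row the 4 memory arrays lie to the left of the 12 others, and Cers6, Abca3 and Gnb4 show the other subsets spread apart while Trat1, Inpp4a and Aim2 show them together.

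Many genes that present antigen on MHC class I, or switch those genes on, were low in memory. This list of 21 measured genes was also drawn up after values had been seen. Of them 13 were lower by the mean comparison and 1 higher (Erap1), 6 were dips, and memory had the lowest mean in 13, with a median difference of -0.33. Over all 22180 genes 7.06% were lower, 7.94% higher and 0.307% dips, and memory had the lowest mean in 5293. Irf1, a transcription factor induced by interferons, measured 9.02, 9.32, 9.16 and 9.27 on memory arrays, and from 9.69 to 10.13 on the 12 others, which overlapped by subset (margin -0.67 ± 0.10, limma adjusted p = 0.001). Nlrc5, the transactivator of MHC class I genes, spanned 10.35 to 10.53 in memory and 10.74 to 11.25 in the others (-0.37 ± 0.08). Tap2 and Tap1, the chains of the peptide transporter, had margins of -0.57 ± 0.09 and -0.41 ± 0.07, and Psmb9, a subunit of the immunoproteasome, of -0.33 ± 0.07. H2-T23, the heavy chain of Qa-1, was the weakest of the 6 (-0.38 ± 0.09): its call was lost in 13 of 16 fits that left out an array. B2m averaged 13.53 in memory, against 13.59 in naive, 13.69 in PD-1int and 13.66 in PD-1hi cells, and did not pass. The immunoproteasome genes Psmb8 and Psmb10 and the activator subunits Psme1 and Psme2 did not pass either.

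Tap1 and Psmb9 are direct neighbours on chromosome 17 and are transcribed away from each other, with 1 annotated gene between Tap1 and Tap2. Their upstream windows are shown because they cover the same DNA: 225 bases are shared, read from opposite strands. The Tap1 window lies at chr17:34187306-34187555, plus strand, and the Psmb9 window at chr17:34187331-34187580, minus strand (RefSeq, GRCm38.p6). Capitals mark the same KLF-type match, read as GGGTGGG toward Tap1 and CCCACCC toward Psmb9.
Tap1 upstream: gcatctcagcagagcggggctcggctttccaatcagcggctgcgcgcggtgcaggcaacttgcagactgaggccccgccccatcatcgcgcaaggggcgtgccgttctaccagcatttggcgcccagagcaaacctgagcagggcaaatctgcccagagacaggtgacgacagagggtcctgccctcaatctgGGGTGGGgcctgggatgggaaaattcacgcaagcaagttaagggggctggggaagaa
Psmb9 upstream: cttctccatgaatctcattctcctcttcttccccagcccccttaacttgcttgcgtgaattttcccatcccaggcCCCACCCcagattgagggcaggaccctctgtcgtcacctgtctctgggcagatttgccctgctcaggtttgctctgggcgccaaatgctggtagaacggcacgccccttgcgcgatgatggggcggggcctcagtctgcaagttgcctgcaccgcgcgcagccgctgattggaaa

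Guanylate-binding proteins are induced by interferon gamma. Of 10 Gbp genes measured 8 were lower and none higher against the mean of the others. In Gbp4, Gbp9, Gbp10 and Gbp11 the step below naive passed and none below a PD-1 subset did. Gbp3 ran otherwise, below PD-1int (-0.92 ± 0.15) and PD-1hi (-0.67 ± 0.15), while its step below naive did not pass. In Gbp8 every memory array lay below every other array, but it was no dip (limma adjusted p = 0.205). Memory minus PD-1hi was 0.01 ± 0.14 in Gbp4, -0.03 ± 0.14 in Gbp9 and within 0.01 of 0 in Gbp10, and Gbp11 averaged 5.43 in memory, against 7.80 in naive, 5.10 in PD-1int and 4.77 in PD-1hi cells. The neighbours Gbp5 (-0.81 ± 0.13) and Gbp7 (-0.52 ± 0.10) on chromosome 3 were dips. Of 32 interferon-stimulated genes on the list 7 were higher and 8 lower, beside 7.94% and 7.06% of all genes, with a median of -0.02. By subset the median difference of the list was -0.39 against naive, -0.03 against PD-1int and 0.44 against PD-1hi. Zbp1, a nucleic acid sensor, and Gbp7 were its dips, and Oas3, which makes the second messenger of RNase L, was its peak, averaging 9.24 ± 0.21 in memory, against 8.47 ± 0.34 in naive, 8.31 ± 0.06 in PD-1int and 7.18 ± 0.16 in PD-1hi cells (SD, n = 4 each; margin 0.77 ± 0.14). Usp18, Cmpk2 and Oasl2 were higher in memory than the mean of the others by 1.22 ± 0.10, 0.80 ± 0.12 and 1.14 ± 0.17. Of 7 Irf genes measured 4 were lower, and Irf1 and Irf4 were dips. Irf4, which scales with the strength of antigen receptor signals, measured 6.10, 5.94, 6.27 and 6.31 on memory arrays, 6.52 to 7.24 on naive, 8.02 to 8.42 on PD-1int and 7.93 to 8.94 on PD-1hi arrays. Its margin was -0.79 ± 0.18, with the call lost in 13 of 16 fits that left out an array.

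On the list of T-cell fate transcription factors 53 genes were measured. Against the mean of the others 10 were higher and 27 lower, beside 7.94% and 7.06% of all genes. Stat4 was the only peak on this list and Irf4 the only dip, beside 0.631% and 0.307% of all genes. Tbx21, which encodes T-bet, averaged 10.20 in memory, against 7.22 in naive, 9.80 in PD-1int and 9.17 in PD-1hi cells, and Eomes averaged 10.25, against 8.04, 11.19 and 11.29. Tox, a driver of exhaustion, averaged 8.85, against 9.22 in naive, 11.03 in PD-1int and 11.58 in PD-1hi cells. Lef1, a gene of resting T cells, averaged 11.24, against 12.33 in naive, 10.11 in PD-1int and 9.28 in PD-1hi cells. In the naive and quiescence list 12 of 21 were higher and 3 lower against the mean of the others, with median differences of -0.60 against naive, 0.83 against PD-1int and 1.45 against PD-1hi, and no peak. Of 13 central memory genes 8 were higher and none lower (median 0.50), among them Ccr7, Il2rb, Id3, Cxcr3 and Bcl2, with Il18r1 the only peak. Of 16 inhibitory receptor genes 5 were higher and 7 lower (median -0.33), and Cd22 was their only peak. Among 24 oxidative phosphorylation genes none passed in either direction, and of 16 glycolysis genes 5 were higher and 2 lower.

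Mitosis genes stood between naive and the PD-1 subsets in memory, and the memory arrays were less even for them (SD 0.60) than those of the other subsets (SD 0.10 to 0.20). Of 27 mitosis genes 12 were lower and none higher against the mean of the others, with median differences of 1.44 against naive, -1.06 against PD-1int and -1.99 against PD-1hi, and no peak or dip. Averaged over the list, with each gene centred on its 16-array mean, the memory arrays stood at 0.19, -0.88, -0.97 and 0.03, against -1.92 to -1.70 on naive, 0.41 to 0.87 on PD-1int and 1.33 to 1.72 on PD-1hi arrays. Memory replicates 1 and 4 were thus well above replicates 2 and 3. The number of lower mitosis genes depended on single arrays: it was 20 without memory replicate 1, 3 without replicate 2 and 3 without replicate 3. It was 0 in a limma fit that took the 12 other arrays as a single group, where 1 passed at an unadjusted p under 0.05. The nucleolar list did not share this spread, with memory arrays at 0.47, 0.47, 0.42 and 0.50, against -0.07 to 0.20 on naive, -0.26 to -0.05 on PD-1int and -0.44 to -0.20 on PD-1hi arrays. The MHC class I list was as even, at -0.23 to -0.16 on memory arrays, against -0.06 to 0.06 on naive, and 0.00 to 0.15 on the arrays of both PD-1 subsets.

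**Figure D5:**
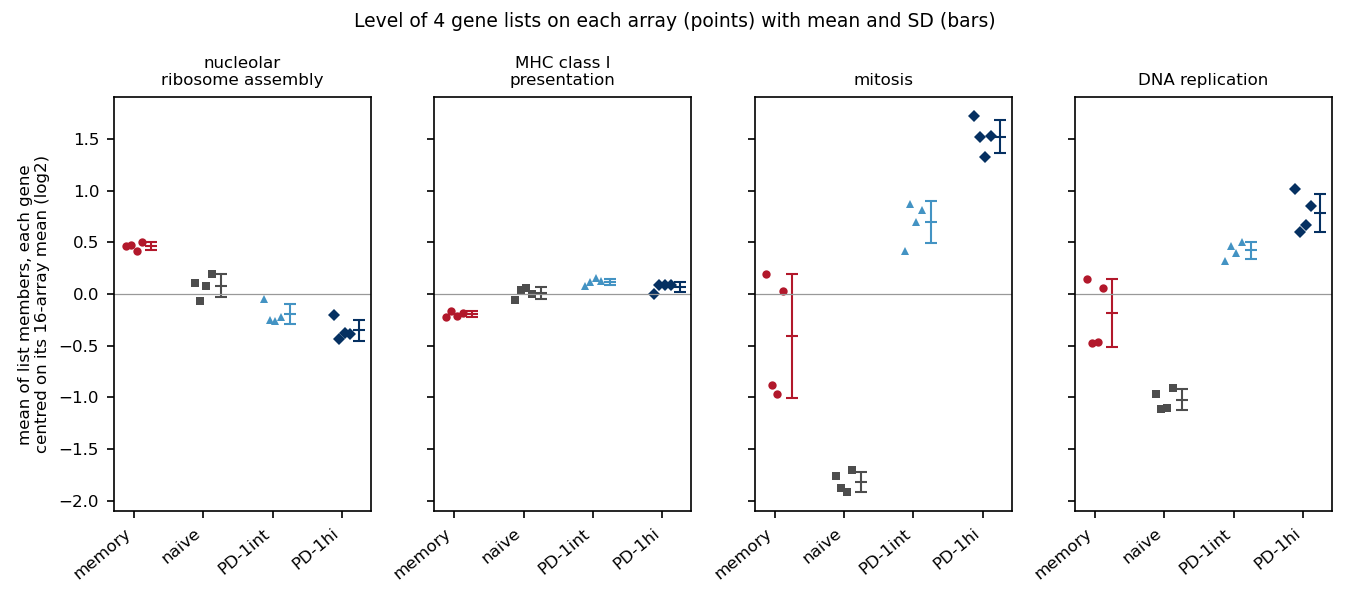
Mean of the members of 4 gene lists on each array, each gene centred on its mean over the 16 arrays (y axis, log2), with points for arrays and a bar for the mean and SD of each subset (n = 4). Memory arrays stand above all others for the nucleolar list and below all others for the MHC class I list, and split into 0.19 and 0.03 against -0.88 and -0.97 for the mitosis list.

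Upstream windows of the peak and dip genes were searched for 5 motifs. RefSeq windows of 250 bases were found for 105 of the 140 peak genes and 57 of the 68 dip genes, and both strands were read. The KLF-type letters GGGTGGG occurred in 17.6% of 131 peak windows and 22.6% of 84 dip windows, beside 17.4% of all windows of measured genes. The T-box core AGGTGT occurred in 9.16% and 14.3%, beside 11.2%, and the RUNX core TGTGGT in 13.7% and 13.1%, beside 2468 of all 20611 windows. The TCF/LEF core CTTTGAT occurred in 3.82% and 3.57%, beside 2.89%, and the interferon-stimulated response element core (GAAA, any 2 bases, GAAA) in 5.34% and 3.57%, beside 597 of the 20611. A gene can have several windows, so genes with a window were also counted. The KLF-type letters were found in 21.0% of peak and 31.6% of dip genes, beside 19.3% of all genes. The T-box core gave 10.5% and 15.8%, beside 12.9%, and the RUNX core 16.2% and 17.5%, beside 13.8%. The TCF/LEF core gave 4.76% and 5.26%, beside 3.38%, and the interferon element core 6.67% and 5.26%, beside 3.4%. These shares were not tested and describe letters only, and a match is not a bound site. The window of Cd163l1, the peak gene with the smallest adjusted p, is shown with its KLF-type match in capitals (chr7:140218017-140218266, plus strand, GRCm38.p6).
Cd163l1 upstream: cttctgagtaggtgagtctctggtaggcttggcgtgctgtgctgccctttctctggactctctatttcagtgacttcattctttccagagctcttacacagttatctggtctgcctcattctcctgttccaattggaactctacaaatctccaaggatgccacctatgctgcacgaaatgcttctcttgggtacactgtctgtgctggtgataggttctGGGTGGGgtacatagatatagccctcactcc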

How the data were processed

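The data were 16 Mouse Gene 2.0 ST arrays (Affymetrix) of sorted splenic CD8 T cells, 4 per subset. Per the labels' protocols, RNA was extracted with an RNeasy Micro kit and labelled with a WT Pico kit. The deposited values, which the authors gave on a log2 scale with 1 value a probe set, ran from 2.35 to 14.13. The submitters' processing notes name Affymetrix Power Tools without a version, and how probes were summarised and arrays scaled is not given in the sources used. Of 41345 probe sets 23521 had 1 gene symbol in the platform annotation, 1814 several and 16010 none. Only the first were used, 23328 of them matched RefSeq by Entrez identifier, and the brightest probe set stood for each of 1082 genes with several, leaving 22180 genes. Dim genes were kept.

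All arrays were fitted with limma 3.58.1 (R 4.3.3), a mean per subset and no block, then eBayes. Memory was set against the mean of the others and against each of them, two-sided, with Benjamini-Hochberg adjustment over all genes and a threshold of 0.05. The number of arrays limits the precision: a log2 difference had a median standard error of 0.0847 for the mean comparison and 0.104 between 2 subsets. Named genes are the 15 peak and 15 dip genes with the largest margin and no overlap between arrays, leaving out predicted loci, small RNAs and receptor segments; the 4 largest rises and 4 largest falls of the mean comparison that were neither; 3 sort genes; up to 5 peak or dip genes per list; and defining markers of other cells. Other genes were chosen after their values were seen, and 1 of the 15 dip genes is not described here. The members, lists and tests were chosen with earlier results of these data known. Lists are described by counts, without a test. Tested on simulated data with 22180 genes, the memory peak rule recovered 20 of 50 peaks of 0.5 and 49 of 50 of 1 log2 unit. The dip rule recovered 46 of 50 dips of 1. Both rules made 0 calls among 21980 unchanged genes, but these had the same mean in all 4 subsets. Among 50 genes lowered by 1 log2 unit in naive alone, neither rule called any, and the mean comparison called 26. Genes on which memory matched a single other subset and differed from the rest were not simulated. Alternatives were a replicate block, a filter on the 40% dimmest genes, mean probe sets, quantile normalization, median centring, trend and robust eBayes, array weights, 8-array fits, the 12 other arrays as a single group, separate adjustment, a margin of at least 1, and leaving out each array.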

Additional observations from a re-analysis of the deposited data

Results flagged for a closer look

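In 17 of 256 groups of 4 arrays, over the 64 named genes, the highest or lowest array stood apart from the 3 others by Dixon's test. Chance gives about 1 in 20 such groups, and no explanation was tested. In memory these were Fcgrt in replicate 2 (11.03), Gbp7 in replicate 4 (10.14) and Nlrc5 in replicate 2 (10.35), the last 2 against margins of -0.52 and -0.37. In naive they were Klra9 in replicate 3 (3.70), Itgb3 in replicate 2 (7.93), Gpr183 in replicate 1 (8.65), Cd84 in replicate 4 (10.87) and Zbp1 in replicate 1 (10.66). In PD-1int they were Serinc5 in replicate 1 (7.35), Maf in replicate 2 (8.81), Klra5 in replicate 3 (7.31), Itgb3 in replicate 2 (7.36) and Pa2g4 in replicate 1 (11.22). In PD-1hi they were Ccng2 in replicate 2 (9.28), Stat4 in replicate 1 (11.16), Pa2g4 in replicate 2 (10.95) and Ddx21 in replicate 1 (10.42). Of these Serinc5 and Klra5 bear on a call, since the outlying PD-1int array lay next to the memory arrays.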

How the results depend on the processing

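None of the 64 named genes changed direction under any alternative run, and direction was not compared for the other genes. Over the 64 named genes 1506 of 1583 repeated calls were kept and 77 lost. Against 3327 genes called by the mean comparison, 824 passed (516 higher and 308 lower) when the 12 other arrays formed a single group, whose spread then holds the differences between subsets; lower mitosis genes numbered 0 there, against 12. Without each array in turn the count was 2642 to 3333. Peak genes numbered 105 to 148 and dip genes 40 to 66 in the same fits, with 45 dips without memory replicate 1 and 40 without memory replicate 3, against 68. Adjusting the 3 comparisons separately gave 310 peaks and 164 dips, and a margin of at least 1, added after seeing the data, left 39 and 14. Deviations of same-numbered arrays correlated at -0.05 to 0.15 (24 pairs, 2 over 0.1, mean 0.03), beside -0.17 to 0.20 for arrays of different numbers (72 pairs, mean -0.01). Of 16 arrays 9 correlated best with their own among 4 numbers, which is a hint of shared numbers. What a number marks is not given, so the main fit did not pair the arrays. A block on the number gave 3314 genes, 164 peaks and 68 dips, of which 130 and 62 were shared with the fit without it. With that single group Il7r, Tnfsf8, Havcr2, Ccl3, Maf, Med7, Cd44 and Pdcd1 did not pass. Named calls were also lost with 8-array fits (Klrb1c, Itga1, Oas3, Zbp1, H2-T23 and Nlrc5), quantile normalization (H2-T23), median centring (Irf4) and trend and robust settings (Klra5). Leaving out an array cost Zbp1 its call in 5 fits, Gbp7 and Nlrc5 in 4 each, Cd84 in 2 and Gpr183 in 1. The median of all genes was -0.01 as deposited and with quantile normalization, and -0.02 with centring. Depth in the sense of signal over background is unknown, since no background level is given.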

Other observations

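Several further peak genes form small groups not described above. Enzymes of carbon and lipid metabolism were Fasn, the fatty acid synthase (margin 0.46 ± 0.10), and Suclg1, a subunit of the citric acid cycle enzyme succinyl-CoA ligase (0.37 ± 0.07). Fasn averaged 10.98 ± 0.11 in memory, against 10.45 ± 0.09 in naive, 10.51 ± 0.08 in PD-1int and 10.32 ± 0.21 in PD-1hi cells (SD, n = 4 each). Cdk4, a kinase of the G1 phase, was a peak of 0.42 ± 0.07, with 11.10 ± 0.05 in memory, against 10.59 ± 0.06, 10.68 ± 0.03 and 10.57 ± 0.12 in naive, PD-1int and PD-1hi cells, although no mitosis or DNA replication gene was a peak. Genes of lysosomes were Lyst (0.72 ± 0.08), Ctsz (0.64 ± 0.13) and Cln3 (0.68 ± 0.09), the last close to the peak gene Apobr (0.87 ± 0.11) in RefSeq order. Phosphatases and kinases of receptor signalling were Ptpn6, which encodes SHP-1 (0.67 ± 0.09), Ptpn12 (0.76 ± 0.11), Ppp3cc, a catalytic chain of calcineurin (0.53 ± 0.08), Prkca (0.42 ± 0.08) and Sgk1 (0.43 ± 0.09).

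Among the dips were Tank (-0.80 ± 0.10) and Map3k5 (-0.76 ± 0.11), which act in innate and stress signalling, the ubiquitin ligases Rnf19a (-0.66 ± 0.14) and Rnf19b (-0.63 ± 0.12), and Nab2, a corepressor of the Egr factors (-0.74 ± 0.09). Nab2 averaged 8.39 ± 0.13 in memory, against 9.30 ± 0.13 in naive, 9.13 ± 0.17 in PD-1int and 9.49 ± 0.06 in PD-1hi cells. The tetraspanin Cd9 was level in the 3 other subsets, at 7.08 ± 0.05 in memory, against 7.85 ± 0.32, 7.83 ± 0.14 and 7.85 ± 0.40 in naive, PD-1int and PD-1hi cells (-0.75 ± 0.17). These genes were picked from the peak and dip genes after their values were seen.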
